A study of Mus musculus with 4 samples.

Results

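The genes described here are the 50 protein-coding genes of the deposited count table whose symbols begin with Psm followed by a letter from a to g and a digit, out of 40481 genes in all. They encode the subunits of the proteasome, its activators and inhibitor, and its assembly chaperones. The exception is Psmc3ip, which matches the naming pattern but encodes a factor of meiotic recombination. By role, 19 genes belong to the core particle and 17 to the regulatory particle. A further 5 are activators, 1 is an inhibitor, 3 are chaperones of the base and 4 are chaperones of the core.

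RNA was sequenced from CD49a+ type 1 innate lymphoid cells (ILC1s) of mice, which are tissue-resident relatives of natural killer cells. Control libraries 1 and 2, labelled WT, were of genotype Inpp4b flox/flox. Libraries 3 and 4, labelled knockout, were of genotype Ncr1-iCre Inpp4b flox/flox, so both groups carried the floxed alleles of the phosphoinositide phosphatase gene Inpp4b and only the second carried the transgene. The iCre recombinase is named for Ncr1, the gene of the receptor NKp46, and would act in any cell that uses Ncr1. Effects of the transgene itself and of the loss of Inpp4b cannot be told apart here. Liver is given as the tissue for control library 1, and ILC1 as the cell type for each of the 4. The labels used here do not state ages or the number of animals, so p-values measure the spread between these 4 libraries, which may be technical.

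The proteasome is the barrel-shaped protease that degrades proteins tagged with ubiquitin. Its core is a stack of alpha and beta rings, in which Psmb5, Psmb6 and Psmb7 encode the constitutive catalytic subunits, and its regulatory particle recognises, unfolds and feeds in the substrate. In lymphocytes and in cells exposed to interferon gamma, newly built cores take up Psmb8, Psmb9 and Psmb10 in their place, and these immunoproteasomes cut many of the peptides that class I histocompatibility molecules present. In mammals, the transcription factor NFE2L1 raises proteasome genes together when proteasome activity is low, through antioxidant response elements.

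Promoters of the catalytic subunits are shown because each catalytic site can be filled by either of 2 genes whose transcripts are set against each other below. The windows run from 250 bases before to 50 bases after the RefSeq start site (GRCm38.p6, 5′ to 3′ on the gene's own strand). Capitals mark matches, on either strand, to TGANNNNGC, to the interferon regulatory factor element (GAAA, NN and again GAAA) or to the STAT element TTCNNNGAA. TGANNNNGC is a loose form of the antioxidant response element core, with the base after TGA left free. The Psmb8 and Psmb5 pair and the Psmb9 and Psmb6 pair are given, Psmb5 from chr14:54617946-54618245 (minus strand), Psmb6 from chr11:70525107-70525406 (plus strand), Psmb8 from chr17:34197945-34198244 (plus strand) and Psmb9 from chr17:34187281-34187580 (minus strand).
Psmb5: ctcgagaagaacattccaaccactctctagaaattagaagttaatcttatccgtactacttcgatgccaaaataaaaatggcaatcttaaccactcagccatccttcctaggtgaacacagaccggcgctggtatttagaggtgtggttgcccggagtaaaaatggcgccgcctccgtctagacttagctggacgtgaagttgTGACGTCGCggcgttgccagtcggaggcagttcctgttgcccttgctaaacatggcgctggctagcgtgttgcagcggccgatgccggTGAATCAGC
Psmb6: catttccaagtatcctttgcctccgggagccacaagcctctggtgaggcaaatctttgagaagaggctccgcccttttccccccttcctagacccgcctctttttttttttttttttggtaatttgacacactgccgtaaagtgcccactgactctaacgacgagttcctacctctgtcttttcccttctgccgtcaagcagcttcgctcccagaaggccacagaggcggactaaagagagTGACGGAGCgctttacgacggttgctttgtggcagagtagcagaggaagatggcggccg
Psmb8: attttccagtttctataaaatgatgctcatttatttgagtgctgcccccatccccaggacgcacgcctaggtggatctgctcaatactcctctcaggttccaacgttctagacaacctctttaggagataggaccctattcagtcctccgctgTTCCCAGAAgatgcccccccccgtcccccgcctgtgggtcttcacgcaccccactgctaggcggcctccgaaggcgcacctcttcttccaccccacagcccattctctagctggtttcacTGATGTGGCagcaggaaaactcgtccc
Psmb9: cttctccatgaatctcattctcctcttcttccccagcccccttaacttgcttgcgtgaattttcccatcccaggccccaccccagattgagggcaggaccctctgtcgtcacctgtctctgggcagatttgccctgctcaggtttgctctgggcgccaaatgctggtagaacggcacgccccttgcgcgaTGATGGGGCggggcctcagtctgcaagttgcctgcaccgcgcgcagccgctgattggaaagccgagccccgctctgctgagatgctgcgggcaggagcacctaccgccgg
Each of these promoters held at least 1 match to this loose form of the antioxidant response element core. In Psmb5 the first bases of its matches were at -47 and 42 from the start site, in Psmb6 at -9, in Psmb8 at 24 and in Psmb9 at -60. Psmb8 also held a STAT element at -97, and none of the 4 windows matched the interferon regulatory factor letters. The Psmb8 and Psmb9 windows lie wholly inside the GENCODE gene spans given below. Their RefSeq start sites are therefore internal to those spans, and the sequence before the outermost start was not covered. RefSeq promoters were found for 42 of the 50 genes, and are not shown for Psma8, Psmb1, Psmb2, Psmb7, Psmc3, Psmd3, Psmd7 and Psmg2. The loose core was in 24 of the 42 (57.1%), against 45% of all 27025 genes with a RefSeq promoter. The interferon regulatory factor element was in 5 of the 42, Psmb3, Psmd4, Psmd9, Psme1 and Psmg4 (11.9%, against 3.99% of all), and the STAT element in 3, Psmb8, Psmd2 and Psmg1 (7.14%, against 9.55%). The Psmb9 window shared 275 bases with that of Tap1, the peptide transporter gene, which is read from the opposite strand.

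Proteasome transcripts were plentiful in every library. Their levels are in TMM-scaled CPM, each count taken relative to a library total corrected for composition, or as CPM per kilobase of exon where genes are compared with each other. The 50 genes took 0.811% and 0.807% of all counts in control libraries 1 and 2, and 0.881% and 0.884% in libraries 3 and 4. Of the 50, 48 passed the filter on low counts. The others were Psma8, an alpha subunit of the testis, with 25 counts in control library 2 and 0 elsewhere, and Psmb11, the thymus subunit, with at most 1 count in a library. Over the 48 genes, 41 varied by less than 1.5-fold between the lowest and the highest library, with a median of 1.31-fold. Only Psmd3, Psme3, Psmg4 and Psmd9 varied by more than 2-fold.

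No proteasome gene passed the threshold between the groups in edgeR's quasi-likelihood test (adjusted p under 0.05), and the members leaned toward higher values in the libraries labelled knockout. Of all 14863 genes tested, edgeR called 0.141% higher and 0.0135% lower in the libraries labelled knockout. At an unadjusted p under 0.05, edgeR marked 4 of the 48 as higher, Psmb5, Psmd8, Psmd9 and Psme1, and 0 as lower, while 4.48% of all genes tested were higher and 5.17% lower by that rule. DESeq2 called 1, Psmd9, higher and 0 lower, against 1.61% and 1.29% of the genes for which it gave an adjusted p, and limma-voom called 0. The log2 fold change of the libraries labelled knockout over control was positive for 39 of the 48, against 48.7% of all genes. Its median was 0.22 over the members and -0.01 over all genes tested. In 27 of the 48, both libraries labelled knockout lay above both controls, which was so for 19.5% of all genes, and in 1, Psme4, both lay below, against 20.8%. Members are well expressed as a rule. Of the 3498 genes at 50 CPM or more, 59.9% had positive fold changes, with a median of 0.07. For the 38 proteasome genes at that level the values were 84.2% and 0.22. Both libraries labelled knockout lay above both controls in 30.4% of the 3498 genes and in 57.9% of the 38. Leaving out 1 library at a time, between 34 (without library 4) and 42 (without control library 2) of the 48 were positive. The members' median less that of all genes tested was 0.24 with all libraries, and ranged from 0.12 without control library 1 to 0.31 without library 3.

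**Figure D1:**
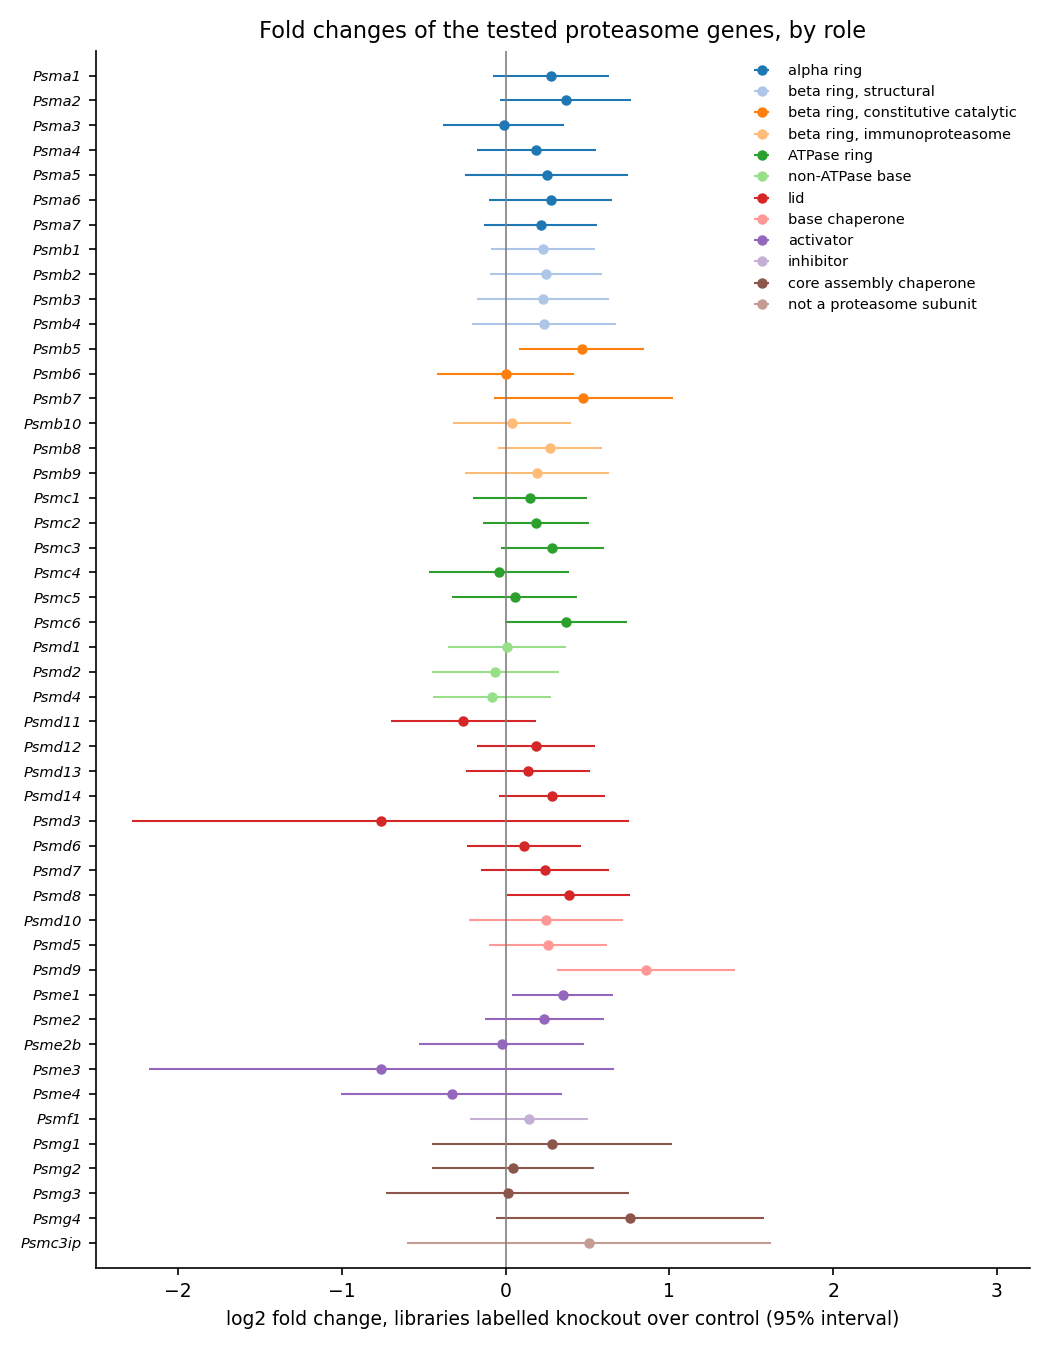
Log2 fold change (horizontal axis) of each of the 48 tested genes, libraries labelled knockout over control (2 libraries each), with its 95% interval from the edgeR fit and coloured by role. Most points lie to the right of 0, the intervals of most include 0, and Psmd3 and Psme3 have the widest intervals.

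Contents of the libraries other than the proteasome genes also differed between the groups. Inpp4b itself was at 78.7 and 106.5 CPM in the controls and 142.5 and 85.9 CPM in libraries 3 and 4, so the targeted transcript was not lower (log2 fold change 0.30, edgeR adjusted p = 0.828), and a whole-gene count does not check the removal of some exons. Markers of ILC1s and natural killer cells summed to 13938 to 17606 CPM, with all 12 detected in each library and 0 called by edgeR (3 at an unadjusted p under 0.05, 3 by DESeq2). Both rules marked the same 3 genes, with Gzmb and Ifng higher and Ncr1 lower in the libraries labelled knockout. Ncr1 was at 1672 and 1771 CPM in the controls and 1201 and 1076 CPM in libraries 3 and 4. Of 16 markers of monocytes, dendritic cells and macrophages, 15 were tested and 7 called higher by edgeR. Of the log2 fold changes, 13 were positive and 2 negative. The 16 summed to 879 and 1012 CPM in controls against 2921 and 3560 CPM in libraries 3 and 4. Itgax, a large part of the control sum, was at 479.3 and 492.1 CPM in controls against 509.9 and 538 CPM. Lyz2, 1 of the 7, was at 43.1 and 71.4 CPM against 625.7 and 582.2 CPM. The Kupffer cell genes Marco, Vsig4 and Timd4 were at 0 in control library 1 and in library 3, and Fcgr1 was at 0 in control library 2. T cell markers summed to 2428 and 2398 CPM against 2925 and 3975 CPM, with 1 of 9 tested, Trac, called higher by edgeR, 6 at an unadjusted p under 0.05 and 4 by DESeq2. Most of that sum was Cd3g, Trbc1 and Trbc2, which were high in every library. Cd3e was at 26.5 and 15.1 CPM in the controls against 152.4 and 370.8 CPM, and Trac at 7.31 and 5.67 CPM against 85.0 and 200.8 CPM, each highest in library 4. No marker of B cells, hepatocytes or endothelial cells was called by edgeR (0, 1 and 0 at an unadjusted p under 0.05, and 0, 1 and 0 by DESeq2). Both rules marked Hp, from the hepatocyte list, as higher (log2 fold change 2.05, edgeR adjusted p = 0.277, DESeq2 adjusted p = 0.00069). Hp was at 6.81 and 3.13 CPM in the controls against 23.7 and 17.6 CPM. Of the 8 hepatocyte genes, 7 log2 fold changes were positive and 1 negative (median 0.23). Antigen-presenting cells also use immunoproteasome genes, and the part of these other cells in the proteasome values was not tested. In bulk libraries, fewer cells of a type and less RNA per cell cannot be told apart.

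At each of the 3 catalytic sites, transcripts of both the constitutive and the immunoproteasome subunit were present in all 4 libraries, but in different proportions. The immunoproteasome gene was the more abundant at the Psmb5 and Psmb7 sites, and the constitutive gene at the Psmb6 site. The 6 genes are paralogs whose coding sequences in GENCODE M21 differed enough to be counted apart, with 68.4% of aligned bases identical between Psmb8 and Psmb5, 66.7% between Psmb9 and Psmb6, and 65.1% between Psmb10 and Psmb7. Pseudogenes of Psmb5, Psmb6 and Psmb7 held at most 156 counts in a library.

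Psmb5 encodes the subunit with the chymotrypsin-like activity (ENSMUSG00000022193, mm10 chromosome 14, 54614119 to 54618022). It was at 69.6 and 67.4 CPM in the controls and at 90.0 and 98.9 CPM in libraries 3 and 4. Both of the latter lay above both controls, by more than the difference within either group. The fold change was 0.46 on the log2 scale (SE 0.16), with an unadjusted p of 0.025 in the edgeR fit and an edgeR adjusted p of 0.429. Its immunoproteasome counterpart Psmb8, in the class II region of the histocompatibility complex (ENSMUSG00000024338, chromosome 17, 34197721 to 34201454), was at 455.4 and 418.6 CPM in the controls and 515.1 and 538.8 CPM in libraries 3 and 4. Here too the groups were apart, and the log2 fold change, 0.27 with an SE of 0.13, had an edgeR adjusted p of 0.586.

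Psmb6 encodes the subunit with the caspase-like activity (ENSMUSG00000018286, chromosome 11, 70525367 to 70527858). Its levels were 234.7 and 295.3 CPM in the controls and 242.5 and 287.7 CPM in libraries 3 and 4. The groups overlapped fully, with a log2 fold change of 0.00 (95% interval -0.42 to 0.42). Psmb9, the counterpart that fills this site in immunoproteasomes (ENSMUSG00000096727, chromosome 17, 34181987 to 34187764), was at 133.1 and 163.7 CPM in the controls and 151.0 and 187.7 CPM in libraries 3 and 4. Library 3 lay between the controls, and the log2 fold change, 0.19 with an SE of 0.18, had an edgeR adjusted p of 0.837.

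Psmb7 encodes the subunit with the trypsin-like activity (ENSMUSG00000026750, chromosome 2, 38588036 to 38644087). It was at 39.6 and 39.8 CPM in controls, at 64.0 CPM in library 3 and at 46.1 CPM in library 4. The controls were almost equal, and library 3 stood well above the other 3. On the log2 scale the difference was 0.47 (SE 0.23, edgeR adjusted p = 0.58). Psmb10 (ENSMUSG00000031897, chromosome 8, 105935735 to 105938444) was at 309.2 and 343.0 CPM in the controls and 308.7 and 361.0 CPM in libraries 3 and 4. Its groups overlapped, with a log2 fold change of 0.04 (95% interval -0.32 to 0.40). The sign of the values of Psmb6, Psmb9 and Psmb10 turned without library 4, where they were -0.15, -0.00056 and -0.11, and the signs of Psmb6 and Psmb10 also turned with scaling by library size alone.

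**Figure D2:**
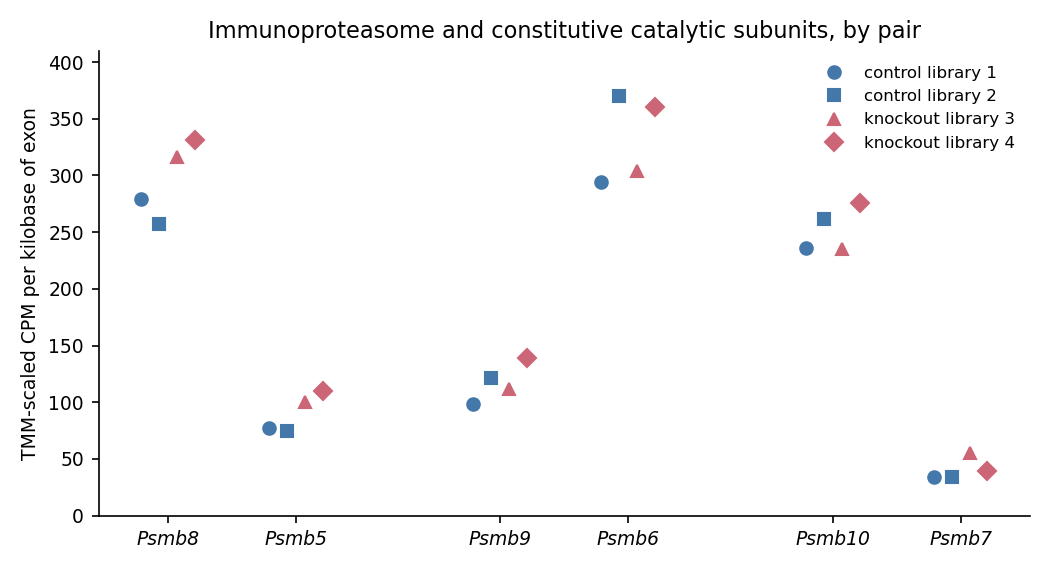
TMM-scaled CPM per kilobase of exon (vertical axis) of the catalytic subunits in each library, each immunoproteasome gene beside its constitutive counterpart. Psmb8 lies above Psmb5 and Psmb10 above Psmb7 in all 4 libraries, whereas Psmb9 lies below Psmb6 in all 4.

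On the per-kilobase scale, Psmb8 exceeded Psmb5 by 3.62- and 3.43-fold in the controls and by 3.16- and 3.01-fold in libraries 3 and 4. Both libraries labelled knockout were below both controls in this ratio, and the difference of the group means was -0.19 on the log2 scale, against a standard deviation between libraries of 0.05 in each group. The Psmb9 to Psmb6 ratio went the other way, at 0.335 and 0.327 in the controls and 0.367 and 0.385 in libraries 3 and 4. Its groups were apart as well, with a log2 difference of 0.18 against standard deviations of 0.02 and 0.05. Psmb10 exceeded Psmb7 by 6.91- and 7.63-fold in the controls and by 4.27- and 6.92-fold in libraries 3 and 4, so the groups overlapped and library 3 alone was low. With 2 libraries in each group, an exact two-sided permutation test cannot give a p below 0.333, and the ratios are given as a description, with no test run on them.

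Summed over the sites, the 3 immunoproteasome genes stood at 1.51 and 1.34 times the 3 constitutive genes in the controls and at 1.45 and 1.46 times in libraries 3 and 4, per kilobase. The libraries labelled knockout fell between the controls, and the log2 difference of the means was 0.03. As a share of the 6 genes, the immunoproteasome genes made up between 57.2% and 60.2% in the 4 libraries. Their share of each site's transcripts was 75.0% to 78.3% for Psmb8, 24.7% to 27.8% for Psmb9 and 81.0% to 88.4% for Psmb10. The size of these ratios depends on the exon length used, which was that of the basic GENCODE transcripts. With the exons of all transcripts the Psmb8 to Psmb5 ratio was 1.45 to 1.74, that of Psmb9 to Psmb6 was 0.284 to 0.334 and that of Psmb10 to Psmb7 was 9.67 to 17.3, with no change in which gene was the more abundant. Reads of Psmb5, Psmb7, Psmb8 and Psmb9 may include some from overlapping genes, since 109 to 498 of their exon bases are shared.

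**Figure D3:**
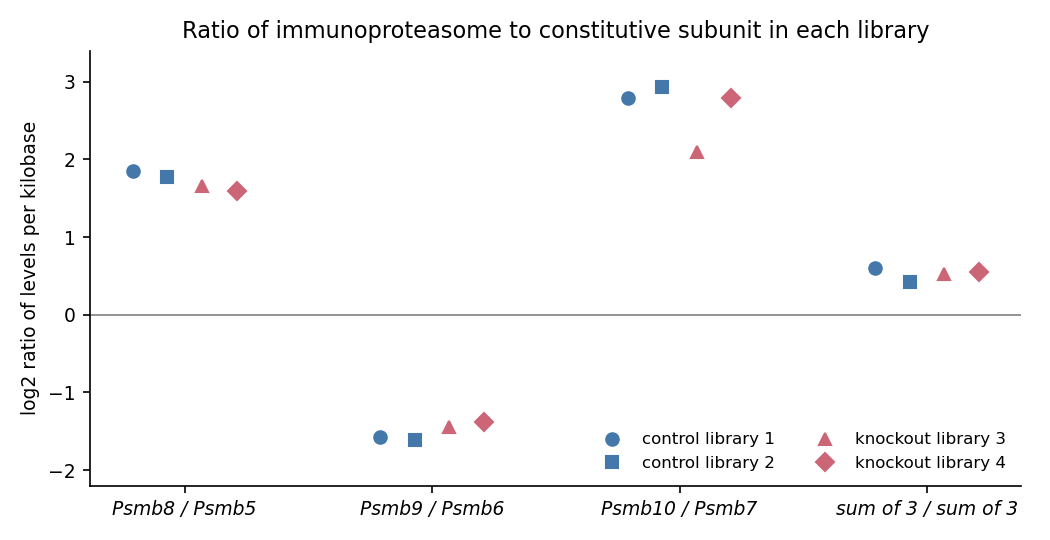
Log2 ratio of the per-kilobase level of each immunoproteasome subunit to that of its constitutive counterpart, and of the summed levels of the 3 subunits of each kind, in each library (vertical axis). The libraries labelled knockout lie below the controls for Psmb8 over Psmb5, above them for Psmb9 over Psmb6, and overlap them for the other ratios.

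The alpha ring, which gates the core, had positive log2 fold changes in 6 of its 7 tested genes (median 0.25). In 5, both libraries labelled knockout lay above both controls, against 19.5% of all genes tested and 30.4% of those at 50 CPM or more. Psma2 was lowest per kilobase and had the largest difference, at 180.0 and 226.1 CPM in the controls and 247.9 and 276.2 CPM in libraries 3 and 4 (log2 fold change 0.37, SE 0.17, edgeR adjusted p = 0.549). Its groups did not overlap. Psma1 was at 152.8 and 170.8 CPM against 186.4 and 206.3 CPM. Psma6 was at 140.3 and 147.1 CPM against 189.8 and 157.9 CPM, and Psma7, the highest per kilobase, at 398.6 and 453.3 CPM against 520.2 and 467.8 CPM. These 3 genes were also apart between the groups, with log2 fold changes of 0.28, 0.27 and 0.21. Psma4 and Psma5 had log2 fold changes of 0.19 and 0.25, and Psma3 the only negative value of the ring, -0.01.

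The 4 beta subunits without a catalytic site, Psmb1 to Psmb4, had nearly the same log2 fold changes, from 0.23 to 0.24. Psmb1 was at 439.7 and 438.5 CPM in the controls and 490.5 and 538.4 CPM in libraries 3 and 4. Psmb2 was at 151.4 and 170.4 CPM against 190.3 and 190.8 CPM. Both were apart between the groups, while Psmb3, the highest of all 50 genes per kilobase, and Psmb4 overlapped. Psmb3 was at 318.7 and 395.8 CPM against 384.3 and 452.6 CPM, and Psmb4 at 82.3 and 71.9 CPM against 99.8 and 81.5 CPM. No gene of either ring other than Psmb5 had an unadjusted edgeR p under 0.05.

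In the regulatory particle, the ATPase ring that unfolds substrates had 5 positive values among 6 genes (median log2 fold change 0.17). Psmc6, the lowest of them per kilobase, was at 108.9 and 95.7 CPM in the controls and 136.5 and 127.5 CPM in libraries 3 and 4 (log2 fold change 0.37, SE 0.15, edgeR adjusted p = 0.522). Psmc3 was at 255.0 and 250.9 CPM against 300.7 and 315.9 CPM, and Psmc2 at 193.3 and 206.7 CPM against 229.1 and 226.0 CPM. For these 3 the groups did not overlap. Psmc4, the highest per kilobase, overlapped at 209.1 and 273.0 CPM against 218.5 and 249.6 CPM, and its value of -0.04 turned to 0.03 without library 3 and to 0.17 without control library 2. Psmc1 and Psmc5 also overlapped, with values of 0.15 and 0.05. The non-ATPase subunits of the base, the scaffold genes Psmd1 and Psmd2 and the ubiquitin receptor gene Psmd4, overlapped throughout, with log2 fold changes of 0.01, -0.06 and -0.08. Psmd4, the highest per kilobase of the base and lid subunits without ATPase activity, was at 233.5 and 258.6 CPM against 214.5 and 249.6 CPM.

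The lid removes ubiquitin chains and holds the particle together. In 6 of its 8 genes both libraries labelled knockout lay above both controls, against 19.5% of all genes tested and 30.4% of those at 50 CPM or more. Psmd14, the deubiquitinase of the lid, was at 166.1 and 163.5 CPM in the controls and 198.9 and 202.4 CPM in libraries 3 and 4. The replicates were nearly equal within each group, and the groups differed by 0.28 on the log2 scale (SE 0.13, edgeR adjusted p = 0.567). Psmd8 was at 136.3 and 149.4 CPM against 171.2 and 201.7 CPM, with no overlap (log2 fold change 0.38, SE 0.15, edgeR adjusted p = 0.505). Psmd6, Psmd7, Psmd12 and Psmd13 were apart as well, with smaller log2 fold changes of 0.11 to 0.24. Psmd11 and Psmd3 had the negative values of the lid, -0.26 and -0.76.

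Psmd3, a lid scaffold gene (ENSMUSG00000017221, chromosome 11, 98682554 to 98695979), was at 33.3 CPM in control library 1 and 9.50 CPM in control library 2, and at 16.8 and 8.46 CPM in libraries 3 and 4. Control library 1 was the highest and library 3 the next, and control library 2 lay between the libraries labelled knockout. The log2 fold change of -0.76 (SE 0.63) turned to 0.41 without control library 1. Psmd3 was also the lowest subunit of the particle per kilobase, at 3.94 to 15.5 CPM per kilobase, while Psmd1, the next lowest, stood at 35.6 to 40.2 CPM per kilobase.

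Set side by side, the core particle had a median log2 fold change of 0.23 over 17 tested genes, 16 of them positive and 10 apart between the groups. The regulatory particle had a median of 0.14 over 17 genes, 12 of them positive and 9 apart. In each gene that was apart, both libraries labelled knockout lay above both controls. That was so for 19.5% of all genes tested and 30.4% of those at 50 CPM or more. The difference of the medians, 0.10, was 0.16 with means in place of medians and 0.04 without control library 1. In levels per kilobase, the median core gene stood at 1.35 and 1.29 times the median regulatory gene in the controls and at 1.496 and 1.448 times in libraries 3 and 4. The ratio was higher in both libraries labelled knockout than in both controls, but overlapped between the groups when the exons of all transcripts set the lengths (1.57 and 1.94 against 1.79 and 1.78).

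The activators that open the core without ATP differed among themselves. Psme1 and Psme2 encode the subunits of the cytoplasmic activator that interferon gamma induces. Psme1 (ENSMUSG00000022216, chromosome 14, 55578123 to 55581529) was at 284.4 and 288.3 CPM in the controls and 360.2 and 369.1 CPM in libraries 3 and 4. The replicates were close together and the groups apart, and the log2 difference was 0.35 (SE 0.13, edgeR adjusted p = 0.466). Psme2, the highest of the activators per kilobase, was at 334.8 and 378.0 CPM against 387.9 and 452.2 CPM, a log2 difference of 0.24 (SE 0.15, edgeR adjusted p = 0.703). Psme2b is identical to Psme2 at 712 of 717 coding bases (99.3%), so its 64.8 to 85.8 CPM are uncertain, since the counting could split reads between them.

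Psme3, the nuclear activator (ENSMUSG00000078652, chromosome 11, 101316213 to 101323537), was at 91.6 CPM in control library 1, 25.1 CPM in control library 2, and 43.7 and 25.3 CPM in libraries 3 and 4. As with Psmd3, control library 1 was the highest, and the log2 fold change of -0.76 (SE 0.59) turned to 0.46 without it. Psme4, a large nuclear activator, was at 23.6 and 17.9 CPM in the controls and 16.8 and 16.2 CPM in libraries 3 and 4. It was the lowest activator per kilobase and the only member whose libraries labelled knockout both lay below both controls, by less than the difference between the controls (log2 fold change -0.33, SE 0.28, edgeR adjusted p = 0.805). Psmf1, the inhibitor, ranged from 84.4 to 95.5 CPM (log2 fold change 0.15).

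The 7 assembly chaperones averaged between 11.9 and 55.1 CPM per kilobase over the libraries, and all had positive log2 fold changes (median 0.26). Psmd9, a chaperone of the base (ENSMUSG00000029440, chromosome 5, 123169413 to 123250131), was at 25.4 and 22.5 CPM in the controls and 46.7 and 40.1 CPM in libraries 3 and 4. The groups were well apart, with a log2 fold change of 0.86 (SE 0.22), an edgeR adjusted p of 0.329 and a DESeq2 adjusted p of 0.026. It is the one member called by a tool, and 1849 exon bases of its span are shared with the antisense RNA gene Gm26745, whose reads cannot be told apart without the strand. Per kilobase, Psmd9 stood at 0.31 times Psmd5, another chaperone of the base, in both controls and at 0.52 and 0.43 times in libraries 3 and 4. Psmd5 and Psmd10, the third base chaperone and the highest of the 7 per kilobase, had log2 fold changes of 0.26 and 0.25. Psmd5 was at 138.8 and 120.8 CPM against 152.2 and 158.3 CPM, and Psmd10 at 67.4 and 80.5 CPM against 77.4 and 98.2 CPM, so the first was apart and the second overlapped.

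Of the chaperones that pair and close the core rings, Psmg4 had the largest difference, from 17.2 and 10.01 CPM in controls to 22.8 and 23.2 CPM in libraries 3 and 4. The groups did not overlap, and the 2 controls differed from each other more than control library 1 did from library 3 (log2 fold change 0.76, SE 0.34, edgeR adjusted p = 0.548). Psmg1, the lowest of the chaperones per kilobase, was at 9.95 and 12.6 CPM against 13.9 and 13.4 CPM, and Psmg2 and Psmg3 overlapped, with log2 fold changes of 0.04 and 0.01. Psmc3ip, the recombination factor, was at 2.90 to 4.28 CPM.

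**Figure D4:**
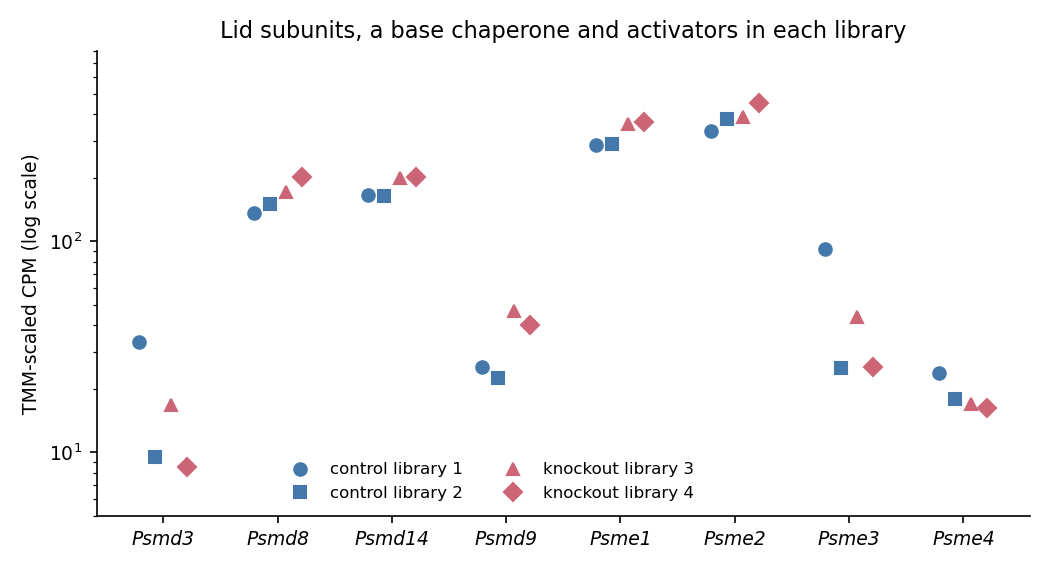
TMM-scaled CPM (log scale, vertical axis) of lid subunits, the base chaperone Psmd9 and the activators in each library. Psmd8, Psmd14, Psmd9, Psme1 and Psme2 have both libraries labelled knockout above both controls, and Psmd3 and Psme3 have control library 1 far above the others.

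Differences between replicates ran alongside each other in the 2 genotypes. The column headers number the replicates 1 and 2 within each genotype, and the difference of replicate 1 from replicate 2 in controls was set against that in the libraries labelled knockout. Across the 48 tested genes Pearson's r was 0.80 and Spearman's rho 0.66. Without Psmd3 and Psme3, which were high in replicate 1 of both groups, r was 0.53 and rho 0.61. Over all 14863 genes, r was 0.12 and rho 0.16. These are correlations across genes of the same libraries, and genes are not independent replicates. Of the 48 members 38 were at 50 CPM or more, but only 3498 genes in all. No set of genes matched for level was compared, for the correlations or for the counts by header number that follow. Comparing libraries of the same header number, library 3 was above control library 1 in 40 of the 48 genes and library 4 above control library 2 in 37, and both held in 34 of the 48, against 28.5% of all genes tested. Nothing in the labels says what the header number marks.

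**Figure D5:**
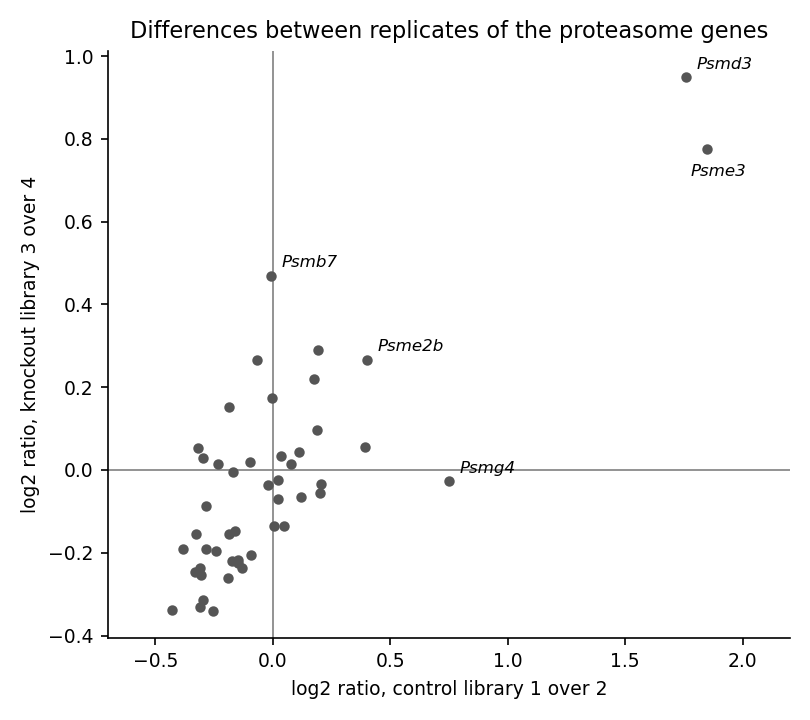
Log2 ratio of control library 1 over 2 (horizontal axis) against that of library 3 over 4 (vertical axis) for the 48 tested proteasome genes, 1 point for each gene. Most points lie in the lower left or the upper right of the plot, and Psmd3 and Psme3 stand apart at the upper right.

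A list of proteasome subunits and associated factors named outside the Psm pattern, which also held Proser1, had no common direction. Of 13 such genes, 11 were in the table and tested, with 6 positive and 5 negative log2 fold changes (median 0.03) and 0 called by edgeR or DESeq2. Sem1, a small lid subunit, was at 218.3 and 232.3 CPM in the controls and 265.3 and 323.4 CPM in libraries 3 and 4, and was the one gene of the list with an unadjusted edgeR p under 0.05 (log2 fold change 0.39, edgeR adjusted p = 0.504). Adrm1, the ubiquitin receptor, Pomp, the maturation factor of the core, and the deubiquitinase Usp14 had values of 0.08, 0.20 and -0.30. The 5 negative values were those of Usp14 and of Ecpas, Txnl1, Ube3c and Proser1. Proser1 is not a proteasome subunit, and a link of it to the proteasome was not tested. It was at 8.51 and 9.12 CPM in the controls and 8.86 and 4.02 CPM in libraries 3 and 4.

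The pathway that tunes proteasome gene expression was split in the same way. Of 9 genes around NFE2L1, 5 were positive and 4 negative (median log2 fold change 0.01), with 0 called by edgeR or DESeq2 and 1, Mafg, lower at an unadjusted edgeR p under 0.05. Nfe2l1 was at 54.0 and 38.9 CPM in the controls and 54.7 and 39.2 CPM in libraries 3 and 4, so that replicate 1 was the higher in both groups and the groups overlapped. Nfe2l2, the related stress factor, was at 99.4 and 106.9 CPM against 109.9 and 137.6 CPM (log2 fold change 0.26, edgeR adjusted p = 0.72). Of 12 genes for ubiquitin, its activating enzymes and shuttle receptors, 11 were tested, 7 were positive and 4 negative (median 0.10), 0 were called by edgeR or DESeq2, and only the ubiquitin fusion gene Rps27a had an unadjusted edgeR p under 0.05 (log2 fold change 0.40).

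Class I presentation genes, which use the peptides that proteasomes make, were positive in 7 of 10 cases (median log2 fold change 0.12), with 0 called by edgeR or DESeq2. B2m, the light chain of class I molecules and the one gene of the list with an unadjusted edgeR p under 0.05, was at 4609 and 4605 CPM in the controls and 5753 and 5918 CPM in libraries 3 and 4 (log2 fold change 0.34, edgeR adjusted p = 0.48). The transporter gene Tap1, divergent neighbour of Psmb9, was at 214.4 and 214.1 CPM against 220.9 and 239.6 CPM, and the ratio of Psmb9 to Tap1 per kilobase overlapped between the groups (1.36 and 1.67 against 1.49 and 1.71). Tap2 was at 241.9 and 194.3 CPM against 226.6 and 251.5 CPM. Nlrc5, the transactivator of class I genes, had a negative value, at 118.8 and 171.2 CPM against 81.8 and 116.5 CPM (log2 fold change -0.55, edgeR adjusted p = 0.556).

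Regulators and targets of the interferon gamma pathway were positive in 11 of 15 cases (median log2 fold change 0.25). edgeR called 0 of them, although 6 had an unadjusted p under 0.05 on the higher side and 1 on the lower, and Ifng and the chemokine gene Cxcl9 were higher by DESeq2. Ifng was at 97.7 and 75.7 CPM in the controls and 142.6 and 171.4 CPM in libraries 3 and 4 (log2 fold change 0.86, edgeR adjusted p = 0.277, DESeq2 adjusted p = 0.00776). Irf1, an activator of immunoproteasome and class I genes, was at 265.0 and 267.4 CPM against 336.1 and 378.5 CPM (log2 fold change 0.42, edgeR adjusted p = 0.404). Both genes were apart between the groups. The myeloid sum and the T cell genes Cd3e and Trac given above were higher in the same libraries as Ifng, Irf1 and Psme1, with Cd3e, Trac and Ifng each highest in library 4, and their part in these values was not tested.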

How the data were processed

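RNA was sequenced from 4 mouse ILC1 libraries, 2 for each genotype. The single table the authors deposited gives whole-number read counts by gene. Per the submitters' processing notes, bcl2fastq, STAR 2.5.1a, Subread featureCounts 1.4.6-p5 and DESeq2 were used with mm10, without their role or order, and the annotation release and strand setting are not given in the sources used here. SMARTer libraries were made from total RNA, per the labels' protocols. The table held 40757 lines, of which 276 identical repeats were dropped. Library totals ran from 42380840 to 54878210 counts. Replicates differed beyond sampling noise (chi-square per degree of freedom 98.5 and 89.6), so each library was counted as 1 sample. Positions and exon lengths were taken from GENCODE M21 on mm10, which held 40254 of the 40481 genes.

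After filterByExpr and TMM scaling (factors 0.956 to 1.06), genotype alone was fitted in edgeR 4.0.16 (robust quasi-likelihood test, two-sided, R 4.3.3), leaving 2 residual degrees of freedom. P-values were adjusted by Benjamini-Hochberg across all 14863 genes tested, and 0.05 was the threshold. The script was tested on simulated data. SE is the standard error of the fit. Alternatives were DESeq2 1.42.0, limma-voom (limma 3.58.1), non-robust edgeR, scaling with DESeq2's size factors, upper-quartile factors or none, no filter, a filter of 50 counts in 2 libraries, removal of ribosomal, mitochondrial and other-cell genes, leaving out each library, and the header number as a block, the last chosen after seeing the data, as were all-transcript exon lengths.

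The members, roles and other lists were chosen with earlier results of these data known. Values per library are given for the 6 catalytic genes, members called by edgeR or DESeq2, and the 3 with the largest change and the lowest and highest level per kilobase in each role group. From other lists they are given for fixed regulators (some are not reported here) and neighbours and some of the genes with the smallest p. Library values of Psmd5, Clec4f, Lyz2, Itgax, Hp and Proser1, and Adrm1, the 4 marker genes at 0 in some libraries and the T cell genes, were chosen after their values were seen.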

Additional observations from a re-analysis of the deposited data

How the results depend on the processing

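No proteasome gene was called lower under any of the alternatives, and 1, Psmd9, was called higher with DESeq2 and 0 under the others. Over 48 members, the number with positive values stayed between 34 and 42 and their median log2 fold change between 0.11 and 0.25. The counts over all genes moved more. From 21 higher and 2 lower, they became 235 and 188 with DESeq2, 40 and 9 with the stricter filter, 299 and 264 with no filter, 0 and 0 with ribosomal, mitochondrial and other-cell genes removed, and 6 lower with scaling by library size alone. With the header number as a replicate block, edgeR called 0 genes in either direction, and 10 of 48 members had higher values with an unadjusted p under 0.05 and 0 lower ones, against 5.77% and 5.73% of all genes in that fit. That block was added after seeing the data: the titles number the libraries 1 to 4, with no number shared between genotypes, so the samples share only a header number, and with 2 pairs it is not a pairing given by the design. Leaving out 1 library gave 0 to 18 genes higher (18 without library 3, 0 without library 4 and 1 without each control in turn) and 0 to 2 lower (2 without control library 1, otherwise 0), a core minus regulatory median of 0.039 to 0.13 (0.10 with all libraries, 0.16 with means) and an immunoproteasome log2 ratio difference of -0.06 (without control library 2) to 0.12 (0.03 with all libraries). That difference was -0.14 with the mean of log2 levels, -0.30 without the Psmb9 and Psmb6 pair and 0.14 without the Psmb10 and Psmb7 pair. Of 420 values for 30 named members, 405 kept their sign and side of the threshold, 1 passed it and 14 changed sign. Those were, with the lowest and highest value on leaving out 1 library, Psmc4 (-0.22 to 0.17), Psmd4 (-0.22 to 0.00083), Psmd3 (-1.397 to 0.41), Psme3 (-1.405 to 0.46), Psmb6 (-0.16 to 0.18), Psmb9 (-0.00056 to 0.35) and Psmb10 (-0.11 to 0.13). Psmd3 and Psme3 were positive only without control library 1. Psmb6 was also -0.026 with the stricter filter, -0.040 by library size alone and -0.016 with no filter, and Psmb10 was -0.0058 by library size alone. The cause of these changes was not tested. On leaving out a library the lone sample of its group is assumed to vary like the other group.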
